A study of Homo sapiens with 5 samples.

Results

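The human miRNAs miR-130a, miR-130b, miR-301a, miR-301b and miR-454 form a seed family. Its rows were taken by name: 5 guide (3p) arms and 5 passenger (5p) arms, 10 of the 2565 human miRNA rows in each count table. The libraries were made from MCF10A, an immortalized human mammary epithelial line that is not tumorigenic. In the detached group (2 libraries) the cells were kept for 24 h in suspension on plates coated with poly(2-hydroxyethyl methacrylate), a coating that prevents adhesion. In the attached group (3 libraries) they grew on uncoated plates. The time label is 0 h for the attached libraries, while the series' text gives the same culture interval for both groups, so which of these applies is unresolved. Both groups were grown in a medium with horse serum, epidermal growth factor, insulin, cholera toxin and hydrocortisone, and small RNA of 18 to 24 nt was gel-purified. The labels do not say whether the libraries of a group came from separate cultures, so p-values rest on a spread between libraries that may be technical.

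A miRNA hairpin is cut into a duplex of which one strand, the guide, is loaded into Argonaute, and the other, the passenger, is mostly discarded. The guide recognises mRNAs mainly through its seed, bases 2 to 8, so miRNAs with one seed can repress overlapping sets of targets. The family is known for repressing the TGF-beta receptor TGFBR2. miR-130a has been described as induced by the coactivator YAP, which responds to adhesion and cell spreading, and as repressing the YAP antagonist VGLL4.

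The guide arms are shown first because they carry the shared seed, in capitals, and because the reads of similar arms may be hard to tell apart. Sequences are mature RNAs from RefSeq on GRCh38.p14, whose table holds 8 of the 10 arms. miR-130a-3p and miR-301b-5p are named only.
miR-130b-3p, chr22:21653354-21653375, plus strand: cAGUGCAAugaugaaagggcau
miR-301a-3p, chr17:59151149-59151171, minus strand: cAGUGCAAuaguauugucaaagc
miR-301b-3p, chr22:21653025-21653047, plus strand: cAGUGCAAugauauugucaaagc
miR-454-3p, chr17:59137787-59137809, minus strand: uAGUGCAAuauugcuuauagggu

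These 4 guide arms were identical from base 2 to base 9 and parted in their 3′ portions. Counted from 1 at the 5′ end without gaps, miR-301a-3p and miR-301b-3p differed only by A10G and G11A, in 23 bases compared. The other pairs were 45.5% to 59.1% identical. How the authors assigned a read that matched several names is not given in the sources used here, so the split between miR-301a-3p and miR-301b-3p is uncertain. The same may hold for miR-130b-3p and the more abundant miR-130a-3p, whose sequence was not compared here. GC content was 45.5% in miR-130b-3p, 39.1% in miR-301a-3p and miR-301b-3p and 34.8% in miR-454-3p.

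The family comes from 3 places in the genome. Per GENCODE 29 on GRCh38, MIR301A (chr17:59151136-59151221) and MIR454 (chr17:59137758-59137872) lie in introns of SKA2, a gene for a spindle and kinetochore protein, on the same strand and 13263 bases apart. MIR301B (chr22:21652981-21653058) lies in an intron and MIR130B (chr22:21653304-21653385) in an exon of the noncoding transcript AP000553.1, 245 bases apart. MIR130A (chr11:57641198-57641286) lies in an intron of the noncoding gene AP000662.1. The hairpins of MIR130B and MIR454, printed here with both arms in capitals, are those whose arm shares are described further on.
MIR130B, chr22:21653304-21653385, plus strand: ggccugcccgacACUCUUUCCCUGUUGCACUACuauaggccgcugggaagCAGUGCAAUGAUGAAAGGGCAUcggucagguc
MIR454, chr17:59137758-59137872, minus strand: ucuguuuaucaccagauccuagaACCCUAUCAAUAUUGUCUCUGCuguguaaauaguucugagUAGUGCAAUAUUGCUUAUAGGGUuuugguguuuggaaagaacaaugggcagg

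Totals of human miRNA counts were 10533740 to 15793173 in the detached and 8805009 to 12153778 in the attached libraries. Levels are CPM, counts per 1000000 human miRNA counts, at which a floor of 3 counts equals 0.190 to 0.341 CPM. Attached replicate 2 stood apart: across the 697 miRNAs tested it correlated with the others at a Spearman coefficient of 0.812 to 0.857, against 0.927 to 0.961 among the other 4. Most fold changes, differences and distances are therefore also given without it. The 4 epithelial markers summed to 83700 and 117000 CPM in detached and 92400, 40800 and 87800 CPM in attached libraries, with miR-205-5p the highest of them in all but attached replicate 2. One of the 4, miR-203a-3p, a miRNA of epithelial differentiation, was scarce and did not overlap between the groups, at 121 and 47.9 CPM in detached and 6.42, 6.93 and 7.27 CPM in attached libraries. Its log2 fold change was 3.62 (edgeR unadjusted p 0.00101, adjusted p 0.145), and 3.62 with an adjusted p of 0.0258 by edgeR without attached replicate 2. Another of the 4, miR-141-3p, also did not overlap but was lower in detached libraries. It measured 12900 and 17300 CPM in detached and 18000, 22000 and 18800 CPM in attached libraries. The log2 fold change of miR-141-3p was -0.38 (edgeR adjusted p 0.928), and -0.29 without attached replicate 2. Of the 697 miRNAs tested, detached libraries lay above all attached ones for 18.1% and below all of them for 8.75%. Of the 4 log2 fold changes, 3 were positive and 1 was negative. The 7 blood markers summed to 22.9 and 22.1 CPM in detached and 14.2, 5.79 and 19.2 CPM in attached libraries. The 3 muscle markers summed to 11.7 and 0.0949 CPM in detached and 1.40, 0 and 0.291 CPM in attached libraries, with miR-133a-3p at 0 in all. The 2 neuronal markers summed to 10.1 and 4.18 CPM in detached and 5.84, 7.27 and 7.75 CPM in attached libraries. The endothelial miR-126-3p measured 21.2 and 31.7 CPM in detached and 31.3, 5.00 and 22.4 CPM in attached libraries. The part of these markers in the family's values was not tested.

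In detached cells 3 of the 5 guide arms, miR-301a-3p, miR-130b-3p and miR-454-3p, measured higher in both libraries than in any attached library. miR-130a-3p, the most abundant member, and miR-301b-3p overlapped between the groups. No arm passed edgeR's quasi-likelihood test at an adjusted p under 0.05 over the 697 miRNAs tested: 0 of the 9 arms tested were called, and 0 had an unadjusted p under 0.05. Over all 697 miRNAs edgeR called 0% higher and 0% lower, with 5.60% higher and 1.00% lower at an unadjusted p under 0.05. DESeq2 and limma-voom also called 0 arms, with 1 each, miR-301a-3p, at an unadjusted p under 0.05. Over all miRNAs DESeq2 called 1.26% higher and 0% lower of the 949 with an adjusted p. It had 2.14% higher and 1.93% lower at an unadjusted p under 0.05 among 1916, a set that includes scarce miRNAs. Over 697 miRNAs limma-voom called 0% in either direction. It had 5.74% higher and 0.717% lower at an unadjusted p under 0.05. Detached libraries lay above all attached ones for 18.1% of the 697 miRNAs, against 3 of the 9 family arms tested.

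**Figure D1:**
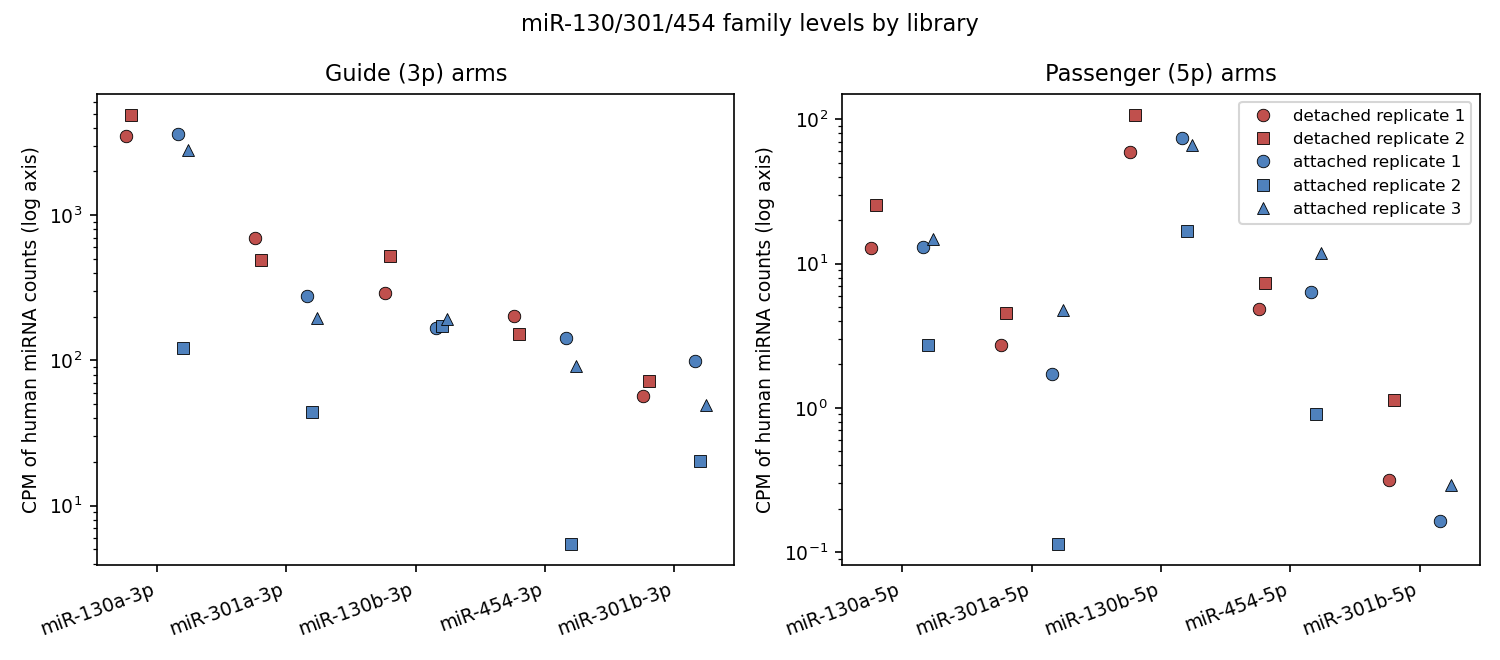
Levels of the 5 guide arms (left) and the 5 passenger arms (right) in each library, in CPM on a log axis, with detached libraries left of attached ones for each miRNA. Attached replicate 2 (blue square) is the lowest library for every arm shown except miR-130b-3p, and its miR-301b-5p value of 0 is not drawn.

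hsa-miR-301a-3p, reported in other systems to repress the NF-kB inhibitor NKRF, had the largest fold change of the 9 arms in edgeR's test of all 5 libraries. On the log2 scale miR-130b-3p exceeded it without detached replicate 1 (1.55 against 1.51). miR-301a-5p exceeded it without attached replicate 3 (1.93 against 1.89). With replicate number added to the fit, miR-130a-3p and miR-454-3p (2.64 each) and miR-301a-5p (2.46) exceeded it (2.40). miR-301a-3p measured 701 and 489 CPM in detached replicates 1 and 2, against 276, 44.5 and 195 CPM in attached replicates 1, 2 and 3. The groups did not overlap, and the lower detached library exceeded the highest attached one. Means were 595 ± 150 CPM in detached (SD, n = 2) and 172 ± 117 CPM in attached cells (SD, n = 3). The log2 fold change was 1.79 (SE 0.81, edgeR unadjusted p 0.0595, adjusted p 0.759). Without attached replicate 2 it was 1.34 (SE 0.50, edgeR unadjusted p 0.0237, adjusted p 0.308). In that fit 8.84% of 679 miRNAs were higher at an unadjusted p under 0.05, and 1.77% were called higher. The authors' deposited table gives a log2 fold change of 1.39 and an adjusted p of 0.998.

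hsa-miR-130b-3p, described as repressing TP53INP1 in liver cancer cells, had the tightest attached values of the guide arms. It measured 291 and 522 CPM in detached libraries, against 168, 174 and 194 CPM in attached ones. Unlike the other guide arms it was not low in attached replicate 2, and the groups did not overlap. Means were 407 ± 164 CPM in detached (SD, n = 2) and 179 ± 13.4 CPM in attached cells (SD, n = 3). The log2 fold change was 1.19 (SE 0.59, edgeR unadjusted p 0.0822, adjusted p 0.786), and 1.17 (SE 0.52, edgeR unadjusted p 0.0490, adjusted p 0.456) without attached replicate 2. The detached libraries differed from each other by more than the whole attached range.

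hsa-miR-454-3p, from an intron of SKA2 like miR-301a, measured 203 and 153 CPM in detached and 143, 5.45 and 91.7 CPM in attached libraries. The groups did not overlap, though attached replicate 1 lay just below detached replicate 2. Its value in attached replicate 2 rests on 48 counts. The log2 fold change was 1.15 (SE 1.10, edgeR adjusted p 0.914), and 0.60 (SE 0.52, edgeR adjusted p 0.841) without attached replicate 2.

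hsa-miR-130a-3p held most of the family's counts in every library but one. It measured 3490 and 4900 CPM in detached and 3630, 121 and 2830 CPM in attached libraries. Attached replicate 1 lay above detached replicate 1, so the groups overlapped, and attached replicate 2 was 26.7-fold below the mean of attached replicates 1 and 3. The log2 fold change was 0.94 (SE 1.09, edgeR adjusted p 0.934) with all 5 libraries and 0.38 (SE 0.41, edgeR adjusted p 0.896) without attached replicate 2.

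hsa-miR-301b-3p, the near-identical partner of miR-301a-3p, did not share its separation. It measured 56.9 and 72.2 CPM in detached and 99.3, 20.3 and 49.3 CPM in attached libraries, so that both detached values lay inside the attached range. The log2 fold change was 0.20 (SE 0.79, edgeR adjusted p 0.972). It was -0.20 (SE 0.55, edgeR adjusted p 0.971) without attached replicate 2 and -0.02 with TMM factors or with DESeq2, so it has no stable direction here. With the reads of miR-301a-3p and miR-301b-3p joined into 1 row, the log2 fold change was 1.53 (SE 0.78, edgeR adjusted p 0.801). Joining miR-130a-3p and miR-130b-3p, also close in sequence, gave 0.96 (SE 0.91, edgeR adjusted p 0.912).

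Of the passenger arms, miR-130b-5p was the most abundant, at 59.6 and 107 CPM in detached and 74.5, 16.9 and 65.9 CPM in attached libraries. miR-130a-5p measured 12.9 and 25.4 CPM in detached libraries and 2.73 to 14.7 CPM in attached ones. miR-454-5p measured 4.81 and 7.31 CPM in detached and 6.34, 0.909 and 11.8 CPM in attached libraries. Each of these overlapped between the groups. miR-301a-5p had 43 and 48 counts in detached and 21, 1 and 49 in attached libraries, which also overlapped. miR-301b-5p had 5 and 12 counts in detached and 2, 0 and 3 in attached libraries and did not pass the low-count filter. The 0 of attached replicate 2 allows up to 0.341 CPM. Its groups did not overlap in CPM, but the values lay near the floor. Where it was fitted, its log2 fold change exceeded that of miR-301a-3p. It was 1.99 against 1.66 with DESeq2 and 2.10 against 1.79 without the low-count filter. Without detached replicate 1 it was 2.77 against 1.51, and with DESeq2 without attached replicate 2 it was 1.55 against 1.29. Log2 fold changes of the 4 passenger arms tested were 0.91 for miR-130a-5p, 0.72 for miR-301a-5p, 0.66 for miR-130b-5p and -0.07 for miR-454-5p, with SE of 0.80 to 1.10. Without attached replicate 2 they were 0.47 for miR-130a-5p, 0.17 for miR-301a-5p, 0.24 for miR-130b-5p and -0.58 for miR-454-5p, with SE of 0.53 to 0.63.

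**Figure D2:**
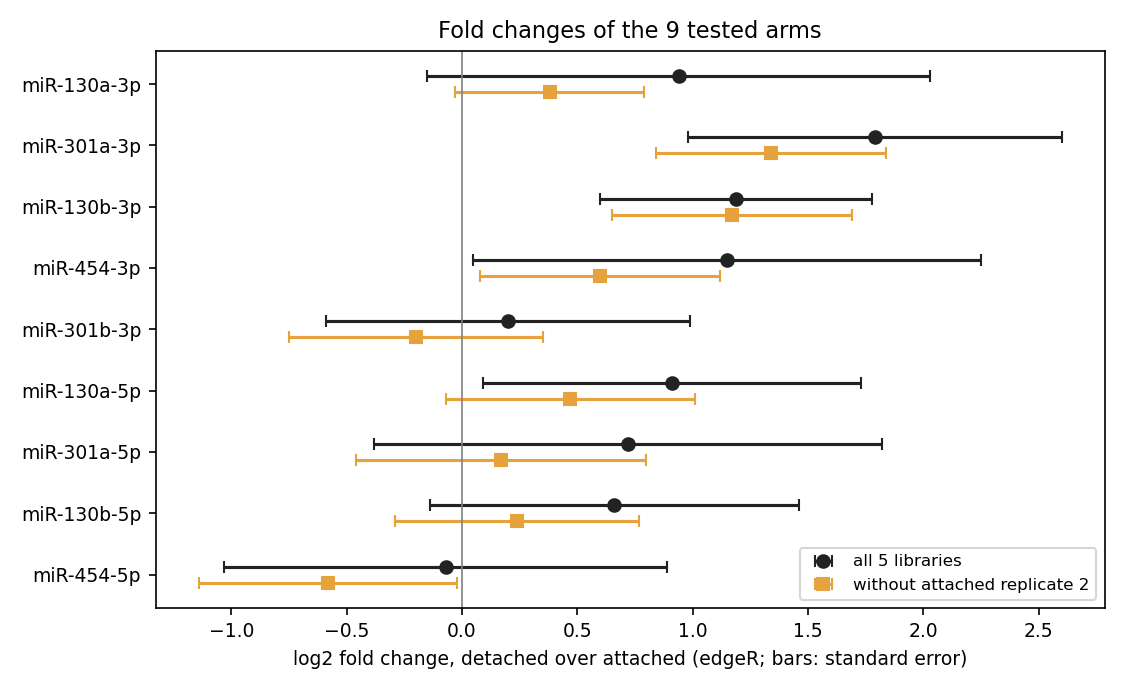
Log2 fold changes, detached over attached, of the 9 arms tested (edgeR, with standard errors), from all 5 libraries (black) and without attached replicate 2 (orange). miR-301a-3p and miR-130b-3p lie farthest right in both fits, at 1.79 and 1.19, and at 1.34 and 1.17.

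Across the 9 arms tested, 8 log2 fold changes were positive, with a median of 0.91. Over all 697 miRNAs 58.0% were positive, with a median of 0.20. TMM factors moved the median of all 697 miRNAs to -0.04 and the share of positive ones to 48.8%, and the family then had 7 of 9 positive with a median of 0.72. Without attached replicate 2 the family had 7 of 9 positive with a median of 0.38, against 51.8% positive and a median of 0.05 over 679 miRNAs. Attached replicate 2 was the lowest of the 5 libraries for 51.1% of the 697 miRNAs. In such bulk samples fewer cells of a type and less of a miRNA per cell cannot be told apart.

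The order of the guide arms changed between libraries. In detached cells miR-130a-3p came first at 4200 ± 993 CPM (SD, n = 2), then miR-301a-3p and miR-130b-3p, which changed places between the 2 libraries so that their ranges overlapped. miR-454-3p followed at 178 ± 35.6 CPM (SD, n = 2), and miR-301b-3p was last at 64.6 ± 10.8 CPM (SD, n = 2), and these ranges did not overlap. In attached cells miR-130a-3p averaged 2190 ± 1840 CPM, miR-454-3p 80.0 ± 69.4 CPM and miR-301b-3p 56.3 ± 40.0 CPM (SD, n = 3), with miR-130b-3p and miR-301a-3p between the first and the second of these. The ranges of all neighbours in the attached order overlapped. Mature miRNAs are of like length, but ligation and amplification can favour some sequences, so the order is one of counts.

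Summed over the 5 guide arms, the seed family measured 4740 and 6130 CPM in detached and 4310, 365 and 3360 CPM in attached libraries. The detached libraries were the highest, and attached replicate 1 lay close below detached replicate 1. Group means were 5440 ± 982 CPM in detached (SD, n = 2) and 2680 ± 2060 CPM in attached cells (SD, n = 3), a log2 ratio of 1.02, and of 0.50 without attached replicate 2. Leaving out miR-130a-3p, a split chosen after the values were seen, the other 4 guide arms summed to 1250 and 1240 CPM in detached and 686, 244 and 530 CPM in attached libraries. Group means of this smaller sum were 1240 ± 10.9 CPM in detached (SD, n = 2) and 487 ± 224 CPM in attached cells (SD, n = 3). The difference of mean log2 sums was 1.48, and 1.04 without attached replicate 2. That measure differs from the log2 ratio of group means, so these values cannot be set against the 1.02 and 0.50 of the whole sum.

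The share of miR-130a-3p was far lower in attached replicate 2 than in the other 4 libraries, while that of miR-301a-3p was highest in detached replicate 1. miR-130a-3p made up 73.6% and 79.8% of the summed guide arms in detached and 84.1%, 33.1% and 84.2% in attached libraries. miR-130b-3p made up 6.13% and 8.51% in detached and 3.90%, 47.7% and 5.77% in attached libraries. miR-301a-3p contributed 14.8% and 7.97% in detached and 6.40%, 12.2% and 5.81% in attached libraries. In attached replicate 2 miR-130b-3p thus exceeded miR-130a-3p.

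**Figure D3:**
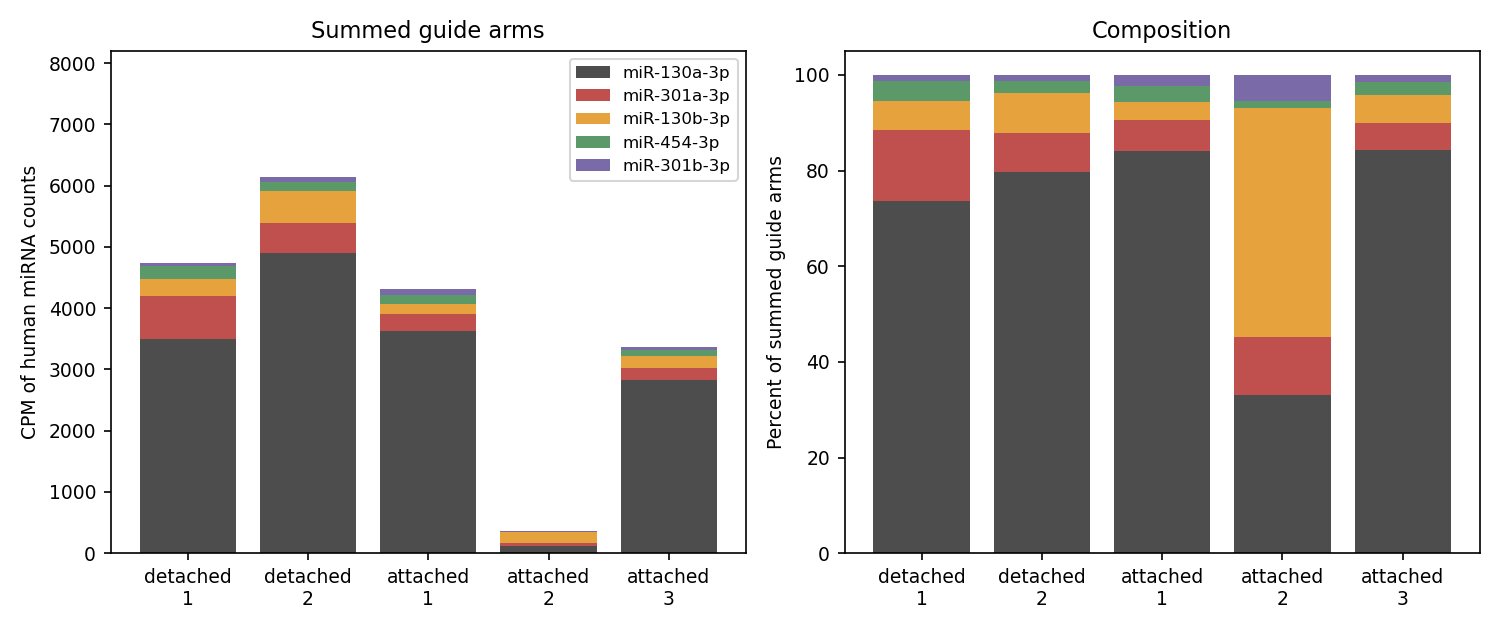
Summed guide arms of the family in CPM (left) and their composition in percent (right) in the 2 detached and 3 attached libraries. miR-130a-3p makes up 73.6% to 84.2% in 4 libraries and 33.1% in attached replicate 2, where the sum is 365 CPM.

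Ratios within the family do not depend on how libraries are scaled. An exact two-sided permutation test with 2 against 3 libraries cannot give a p below 0.2, so none of the 9 ratios and arm shares computed could pass. The log2 ratio of miR-301a-3p to miR-454-3p, both from SKA2, was 1.79 and 1.68 in detached and 0.95, 3.03 and 1.09 in attached libraries. The detached values lay within the attached range (exact permutation p 1, adjusted p 1 over the 9). Without attached replicate 2 the mean difference was 0.71, against 0.04 with it. The log2 ratio of miR-301a-3p to miR-301b-3p, chosen after the values were seen, was 3.62 and 2.76 in detached and 1.47, 1.13 and 1.99 in attached libraries. It was the only one of the 9 whose groups did not overlap, by a mean difference of 1.66 (exact permutation p 0.2, the smallest the design can give, adjusted p 1 over the 9). Attached replicate 2 did not stand apart in this ratio, and without it the difference was 1.46.

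The neighbours on chromosome 22 also differed in pattern. The log2 ratio of miR-130b-3p to miR-301b-3p was 2.35 and 2.85 in detached and 0.76, 3.10 and 1.97 in attached libraries, which overlapped (exact permutation p 0.6, adjusted p 1 over the 9). Its mean difference was 0.66, and 1.24 without attached replicate 2. The log2 ratio of miR-130b-3p to miR-130a-3p was -3.59 and -3.23 in detached and -4.43, 0.53 and -3.87 in attached libraries, with a mean difference of -0.82, and of 0.74 without attached replicate 2. Both of these ratios were also chosen after the values were seen.

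Guide arms made up nearly all counts at 3 hairpins, with less at miR-454 and least at miR-130b. miR-130a, miR-301a and miR-301b had guide shares of 97.6% to 100% in all 5 libraries. For miR-454 the guide arm held 97.7% and 95.4% of the counts of both arms in detached and 95.8%, 85.7% and 88.6% in attached libraries, a mean difference of 6.55 percentage points, and of 4.39 without attached replicate 2. For miR-130b it held 83.0% in each detached library, with 95% Clopper-Pearson intervals of 82.0% to 84.0% and 82.1% to 83.9%. In attached replicates 1, 2 and 3 it held 69.3% (67.6% to 71.0%), 91.1% (89.7% to 92.5%) and 74.6% (72.9% to 76.3%). Intervals and floors reflect counting error alone, because without molecular identifiers the reads are not independent. The attached shares of miR-130b thus lay on both sides of the detached ones (exact permutation p 0.6, adjusted p 1 over the 9). The mean difference was 4.65 percentage points, 11.0 without attached replicate 2 and 0.119 without attached replicate 1.

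**Figure D4:**
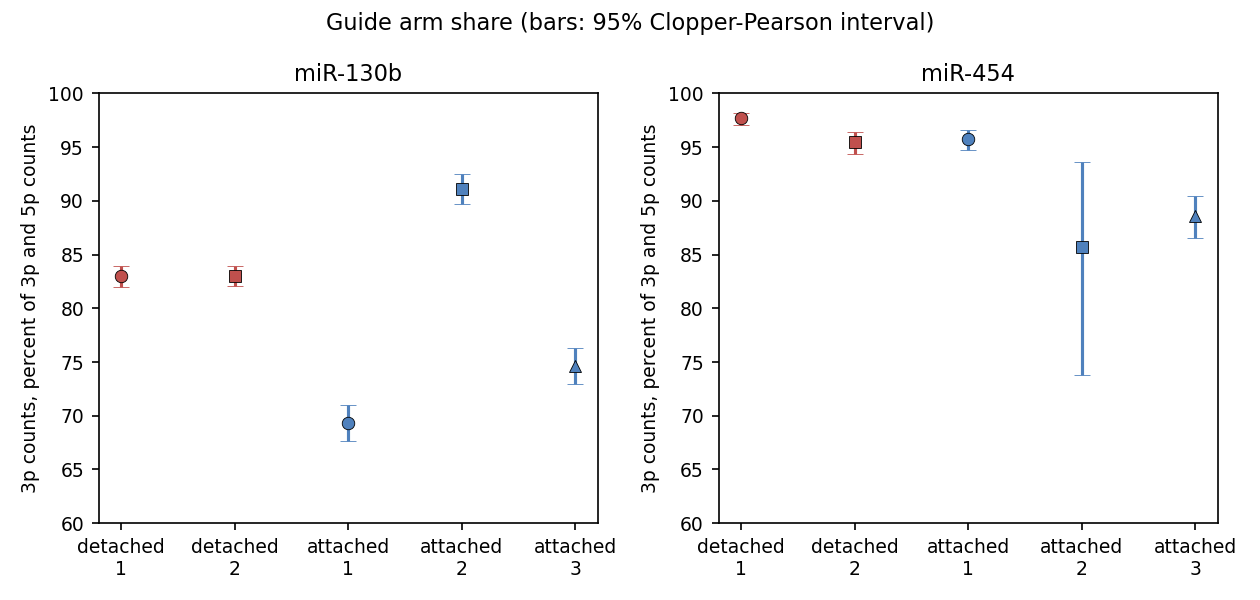
Share of 3p counts among the 3p and 5p counts of miR-130b (left) and miR-454 (right) in each library, with 95% Clopper-Pearson intervals, on an axis from 60% to 100%. For miR-130b both detached libraries sit at 83.0%, between attached replicates 1 and 3 below and attached replicate 2 above.

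Beyond the family rule, 2 human miRNAs of the reference table have the same seed, and neither had a count in any library. They are shown to set their seed, in capitals, beside that of the family.
miR-3666, chr7:114653373-114653393, plus strand: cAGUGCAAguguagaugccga
miR-4295, chr10:112634180-112634197, plus strand: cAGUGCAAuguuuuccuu

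A list of 5 further guide arms was taken for a seed offset by a base, which holds 6 bases of the family's. miR-19a-3p and miR-19b-3p, members of the miR-17-92 cluster, carry GUGCAA at bases 2 to 7. miR-148a-3p, miR-148b-3p and miR-152-3p, known for repressing the DNA methyltransferase DNMT1, carry AGUGCA at bases 3 to 8. Of these 5, all tested, edgeR called 0, with 0 at an unadjusted p under 0.05. All 5 log2 fold changes were positive, with a median of 0.50, and of 0.18 without attached replicate 2. miR-19b-3p measured 16300 and 10300 CPM in detached and 10100, 6600 and 13300 CPM in attached libraries (log2 fold change 0.41, SE 0.49). miR-19a-3p measured 6840 and 5780 CPM in detached and 6530, 1420 and 5410 CPM in attached libraries (0.50, SE 0.67). Without attached replicate 2 these log2 fold changes were 0.18 for miR-19b-3p and 0.08 for miR-19a-3p.

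By the root mean square difference of centred log2(CPM + 1) profiles over the 5 libraries, 5 of 688 miRNAs outside the family came nearest to the summed guide arms. They were miR-96-5p (0.166), miR-296-5p (0.187), miR-200c-3p (0.266), miR-195-5p (0.270) and miR-660-3p (0.283), against a median of 1.33. miR-96-5p measured 1130 and 1620 CPM in detached and 1020, 106 and 693 CPM in attached libraries. miR-200c-3p, which keeps up E-cadherin by repressing ZEB1 and ZEB2, measured 18300 and 17200 CPM in detached and 13400, 1750 and 12200 CPM in attached libraries. All 5 were lowest in attached replicate 2. Without that library the median distance was 0.467, and miR-296-5p (0.0626) and miR-96-5p (0.127) ranked 2 and 6, whereas miR-200c-3p (0.184), miR-660-3p (0.243) and miR-195-5p (0.286) ranked 22, 60 and 101 of 688. Of the family's own guide arms, miR-454-3p (0.429), miR-130a-3p (0.513) and miR-301a-3p (0.526) lay nearer to the sum than miR-301b-3p (0.855) and miR-130b-3p (1.26). Without attached replicate 2 miR-130a-3p (0.0789) was the nearest and miR-301a-3p (0.522) the farthest of the 5. Each of these arms is part of the sum it was compared with. Outside attached replicate 2 miR-130a-3p made up 73.6% to 84.2% of that sum, so its nearness there was built in.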

How the data were processed

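The authors deposited raw read counts per named small RNA for 5 libraries and a comparison table. The 5 summary rows of each count table total 0 and were left out. Per the file header, the authors' table gives log2 fold changes with standard errors, a test score, p-values and size-factor-scaled counts, a signal. Of those scaled values 100% came out as whole reads (tolerance 0.01), and edgeR on these reads called 0 miRNAs. The submitters' processing notes name hg38 and DESeq2. The aligner is not given in the sources used here, nor is the counter.

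Counts of human miRNA rows entered edgeR 4.0.16 (R 4.3.3, quasi-likelihood F test, two-sided, group as the only term), with library sizes equal to their totals and no further factor. The filter was filterByExpr (minimum count 10, minimum total 15), and Benjamini-Hochberg adjusted p under 0.05 over 697 rows was a call. SE is the absolute log2 fold change over the square root of F. Alternatives used limma 3.58.1 and DESeq2 1.42.0, TMM factors, no filter and a filter of 100 CPM in 2 libraries, all named rows, joined paralogs, a replicate block and leaving out each library. The test was also run on simulated counts with a fixed spread, large fold changes and no outlying library. That setting is unlike these data, so the run does not show how the test performs here. Members and lists were chosen with earlier results of these data known. All family rows were named. Of the seed lists, miRNAs with unadjusted p under 0.05, or else the 2 most abundant, were named, and the 5 nearest in pattern. Marker miRNAs were fixed by list, and those named were chosen after their values were seen. One further list is not reported here. Same-seed miRNAs were searched with the seed of miR-130b-3p. No 2 libraries of a group looked like duplicates (chi-square over degrees of freedom 606 to 3830).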

Additional observations from a re-analysis of the deposited data

How the results depend on the processing

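In every one of the 16 alternatives 0 family members were called in either direction, and the lowest adjusted p of any member was 0.242, for miR-301a-3p with DESeq2 without attached replicate 2. Of 139 alternative log2 fold changes of members, 130 kept their direction and 9 turned. In this count each joined row stands for both of its arms, and miR-301b-5p is left out. miR-301b-3p turned to -0.02 with TMM factors and with DESeq2, to -0.32 with DESeq2 without attached replicate 2 and to -0.37 with TMM factors without it (-0.20 to 0.89 when each library was left out). miR-454-5p turned to 0.50 with limma-voom and 1.22 with the replicate block (-0.58 to 0.73 when each library was left out). Over their alternatives miR-301a-3p ran from 1.25 to 2.40, miR-130b-3p from 0.70 to 1.55, miR-130a-3p from 0.23 to 2.64, miR-454-3p from 0.50 to 2.64 and miR-301a-5p from 0.08 to 2.46. The highest values of the last 3 came from the replicate block, under which miR-130a-3p, miR-454-3p and miR-301a-5p exceeded miR-301a-3p (2.40). Over all miRNAs, 0 were called higher in the edgeR test of all 5 libraries, against 12 with DESeq2, 15 without the low-count filter, 25 with DESeq2 without attached replicate 2, 22 with TMM factors without it and 0 to 12 when each library was left out, the 12 being without attached replicate 2. None were called lower, against 5 without the filter, 5 with DESeq2 without attached replicate 2, 1 with TMM factors without it and 0 when each library was left out. The fits that leave out attached replicate 2 with DESeq2 or TMM, the recovered reads the leave-one-out values of the ratios chosen later and the pattern distances without attached replicate 2 were added after seeing the data. When each library was left out, the log2 ratio of group means of the summed guide arms ran from 0.50 to 1.55. The detached minus attached difference ran from -0.33 to 0.71 for the log2 ratio of miR-301a-3p to miR-454-3p, and from -1.74 to 0.74 for that of miR-130b-3p to miR-130a-3p. Guide share differences, in percentage points, ran from -0.00519 (without attached replicate 2) to 0.918 for miR-130a and from -0.217 to 0.842 (without attached replicate 2) for miR-301a. The cause of these turns was not tested. Whether replicate numbers pair the samples is not settled here. Log2 deviations from the group means correlated at -0.267 for the libraries numbered 1 and -0.245 for those numbered 2. With 2 detached libraries these deviations mirror each other, so the correlations cannot exclude pairing. The replicate block called 0 miRNAs, but so did the edgeR test without it. Without a detached library, the other was assumed to vary like the attached ones. Depth limited miR-301b-5p and miR-301a-5p, with 0 to 12 and 1 to 49 counts.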

Other observations

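In attached replicate 2 the family's arms stood at very different distances from the other attached libraries, also where they share a host gene or a hairpin. Relative to the mean of attached replicates 1 and 3, on the log2(CPM + 1) scale, it measured -4.73 for miR-130a-3p, -4.20 for miR-454-3p, -2.38 for miR-301a-3p, -1.82 for miR-301b-3p and -0.06 for miR-130b-3p, against a median of -0.52 over the 697 miRNAs tested. Of these, 1.29% lay lower than miR-130a-3p and 62.6% lower than miR-130b-3p. The passenger arm miR-130b-5p, from the same hairpin as miR-130b-3p, measured -1.99 on this scale. The MIR130B arms had the highest GC contents of the 8 arms with a reference sequence, 47.6% for miR-130b-5p and 45.5% for miR-130b-3p. Among guide arms with a reference sequence, miR-454-3p had the lowest GC content (34.8%) and the lowest value. miR-301a-3p and miR-301b-3p (39.1% each) lay between it and miR-130b-3p. This order leaves out miR-130a-3p, the lowest guide arm of all (-4.73), which has no reference sequence here. The 3 passenger arms at 40.9% measured -1.93 to -2.40. They were scarce, so the 1 added to CPM shrinks their distances. In CPM, attached replicate 2 was 28.5-fold below the mean of attached replicates 1 and 3 for miR-301a-5p (1 count). It was 9.99-fold below for miR-454-5p and 5.09-fold for miR-130a-5p. The Spearman correlation of GC content with the log2(CPM + 1) measure was 0.19 across 602 of the 697 miRNAs, those with a reference sequence. These miRNAs come from the same libraries, and the part of GC content in the values was not tested.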
